A study of Mus musculus with 8 samples.

Results

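A set of 9 genes that define or arm group 1 and group 3 innate lymphoid cells, named by symbol, was followed in bulk RNA sequencing of thymic group 2 innate lymphoid cells (ILC2). They were Tbx21, Eomes, Ncr1 and Ifng of the group 1 (ILC1) program and Ahr, Il23r, Il1r1, Il17a and Il22 of the group 3 (ILC3) program. All 9 were found by Ensembl ID among 50686 genes in the count table. Of the 9, 4 were near zero (fewer than 10 counts summed over the 8 libraries): Tbx21, Eomes, Ncr1 and Il23r. The other 5, Ifng, Ahr, Il1r1, Il17a and Il22, passed the filter on low counts and were tested among 13644 genes.

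The cells came from the thymus of C57BL/6 mice carrying plck-Id1, a transgene in which the proximal Lck promoter drives Id1, an inhibitor of E proteins. They were transduced with the MIGR1 retroviral vector holding GFP alone or GFP with E47-ER, the E protein E47 joined to the part of the estrogen receptor that 4-hydroxytamoxifen binds, which sets its activity free. Cells with GFP were sorted and grown in IL-7 with IL-25 plus IL-33, and every group, the GFP controls included, then received 4-hydroxytamoxifen for 4 h or 16 h. The 4 groups, GFP and E47-ER at 4 h and GFP and E47-ER at 16 h, held 2 libraries each. There was no E47-ER library without the drug among those used here, so differences that preceded the drug and those that followed it cannot be told apart. The labels give neither the age of the mice nor whether the 2 libraries of a group stem from different mice or cultures. The p-values therefore reflect only how far libraries of a group scatter, and that scatter may be technical.

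Innate lymphoid cells are sorted into groups by the transcription factor that directs them and the cytokines they secrete. Group 1 cells depend on T-bet (Tbx21), natural killer cells also on Eomes, and both secrete interferon gamma (Ifng) and carry the receptor NKp46 (Ncr1). Group 3 cells are sustained by the aryl hydrocarbon receptor (Ahr), sense IL-23 and IL-1 through Il23r and Il1r1, and secrete IL-17A and IL-22. Group 2 cells depend on GATA3 and secrete IL-5 and IL-13. In the thymus, E proteins act upstream of the T cell program, and some ILC2 can take on group 1 or group 3 features in inflamed tissue.

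Library totals ran from 8813782 to 18677675 counts. The lowest belonged to replicate 2 of GFP at 16 h, whose trimmed-mean scaling factor was 0.853 against 1.01 to 1.03 for the other libraries, so results were computed again without it. Of 18 listed genes of ILC2, 0 were under 10 counts and several defining ones were high. Gata3 stood at a mean of 249, the IL-33 receptor gene Il1rl1 at 280, Il5 at 3094 and Il13 at 6131 CPM per kb (CPM is the count scaled to library size, here divided by the exon length in kb). Of 12 natural killer and ILC1 surface markers, 6 were under 10 counts and 1 of these (Ncr1) was at 0. Klrb1c, which encodes NK1.1, had 1 count. A wider list of 33 group 1 genes was not low as a whole. It summed to 27605 to 36367 CPM over the libraries, with 4 of its genes under 10 counts. Its most abundant genes, the granzyme genes Gzmb and Gzma, stood at means of 16610 and 5500 CPM per kb. Some defining genes of other cells were at or near 0, with 1 count of Cd8a, 2 of Lyz2 and 0 of Foxn1 over all libraries, while Cd4 had 26. The marker lists as wholes were not at 0: summed CPM ran from 181 to 307 over the libraries for T cells, 23.1 to 133 for mast cells and basophils, 9.6 to 39.6 for B cells and 15.8 to 36.4 for myeloid cells.

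The upstream sequences shown here belong to the most abundant of the 9 genes, to its near-identical copy, and to the pair of group 1 genes whose upstream bases hold the E box form CAGGTG. Sequences are those of RefSeq on GRCm38.p6, which held 8 of the 9 genes, with Ahr the exception, and run 5′ to 3′ towards the transcription start. In Il22 (chr10:118204714-118204941, plus strand) and Iltifb (chr10:118295039-118295288, minus strand), capitals mark a stretch of 54 bases that both share, with 52 identical bases and 2 mismatches. Il22 is printed only up to the base before its annotated gene start (118204942), while its searched window runs on to 118204963. The stretch lies 79 to 26 bases before the RefSeq start in Il22 and 57 to 4 bases before it in Iltifb. In Tbx21 (chr11:97115332-97115581, minus strand) and Ifng (chr10:118440796-118441045, plus strand), capitals mark CAGGTG.
Il22: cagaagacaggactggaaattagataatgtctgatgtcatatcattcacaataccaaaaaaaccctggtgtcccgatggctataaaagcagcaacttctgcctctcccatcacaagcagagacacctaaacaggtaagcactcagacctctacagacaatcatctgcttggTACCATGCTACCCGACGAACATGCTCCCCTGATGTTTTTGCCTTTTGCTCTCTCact
Iltifb: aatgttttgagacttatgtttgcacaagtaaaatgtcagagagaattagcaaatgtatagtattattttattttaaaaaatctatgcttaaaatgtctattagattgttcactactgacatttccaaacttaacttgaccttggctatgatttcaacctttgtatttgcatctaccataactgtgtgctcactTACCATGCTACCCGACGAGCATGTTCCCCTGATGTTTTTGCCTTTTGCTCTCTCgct
Tbx21: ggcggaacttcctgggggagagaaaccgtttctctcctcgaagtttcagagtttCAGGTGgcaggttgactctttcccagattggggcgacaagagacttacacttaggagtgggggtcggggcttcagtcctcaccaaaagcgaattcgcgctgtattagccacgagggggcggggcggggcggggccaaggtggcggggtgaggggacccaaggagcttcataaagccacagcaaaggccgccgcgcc
Ifng: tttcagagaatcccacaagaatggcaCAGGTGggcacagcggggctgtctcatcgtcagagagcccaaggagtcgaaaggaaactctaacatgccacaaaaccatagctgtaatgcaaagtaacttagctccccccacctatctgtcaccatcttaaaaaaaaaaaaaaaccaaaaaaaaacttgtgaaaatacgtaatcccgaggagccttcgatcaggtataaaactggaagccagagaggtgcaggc

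E proteins bind the E box, CANNTG in its general form, and the aryl hydrocarbon receptor binds sites with the core GCGTG. Both motifs, with CAGGTG as a favoured form of the E box and CAGCTG as a further form, were searched on both strands (every match to either of these forms is also a match to the general form) in the 250 bases before each start. CAGGTG lay 196 bases before the start of Tbx21 and 224 bases before that of Ifng, and 17.2% of 32851 RefSeq windows of the same length hold it. CAGCTG was in none of the windows of the 8 genes, against 13.0% of all windows. The window before Il22 held 1 CANNTG and no GCGTG. Eomes held no CANNTG, and each window of the other genes held 1 to 3. Ncr1 and Il1r1 have 2 starts each, and the only GCGTG lay 125 bases before start 2 of Il1r1. The general form CANNTG stands in 66.2% of all windows and GCGTG in 28.2%. A match is a description of letters and not a binding site.

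Tbx21 (ENSMUSG00000001444; chromosome 11, 97098071 to 97115331, minus strand, GRCm38), the master regulator of group 1 cells, had 1 count in all, in replicate 2 of E47-ER at 4 h, and 0 in the other 7 libraries. Eomes (ENSMUSG00000032446; chromosome 9, 118478212 to 118486132, plus strand) had 5 counts, 1 in replicate 1 of GFP at 4 h, 2 in replicate 2 of E47-ER at 4 h and 2 in replicate 1 of GFP at 16 h. Ncr1 (ENSMUSG00000062524; chromosome 7, 4337724 to 4345164, plus strand) had 0 counts in all 8 libraries. The detection limit, set at 3 counts over all libraries, corresponds to 0.0254 CPM. No group showed these genes above the level of a few reads.

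Il23r (ENSMUSG00000049093; chromosome 6, 67422932 to 67491855, minus strand), the specific chain of the IL-23 receptor, had 4 counts, 1 in replicate 2 of each of the 4 groups and 0 in every replicate 1. Over the 8 libraries together the exact 95% Poisson interval was 1.09 to 10.2 counts for Il23r and 1.62 to 11.7 for Eomes. It was 0.0253 to 5.57 for Tbx21 and 0 to 3.69 for Ncr1, and it covers counting error only. These 4 genes failed the filter on low counts, and no fold change is given for them.

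**Figure D1:**
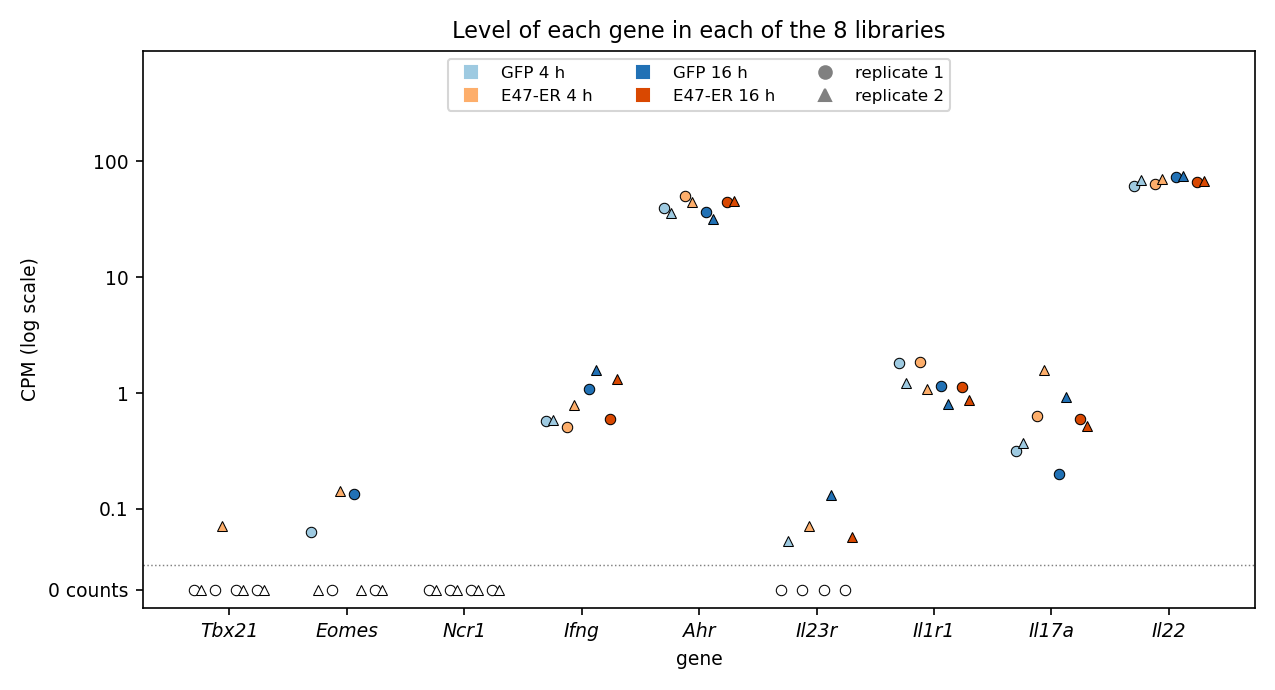
Level of each of the 9 genes (x axis) in each of the 8 libraries (y axis, CPM on a log scale). Colours mark the groups, circles replicate 1 and triangles replicate 2, and open symbols below the dotted line mark libraries with 0 counts. Il22 lies between 60.9 and 74.5 CPM and Ahr between 31.5 and 50.0 in every library, while Tbx21, Eomes, Ncr1 and Il23r lie at or near 0.

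Il22 (ENSMUSG00000074695; chromosome 10, 118204942 to 118210047, plus strand), whose product acts on epithelial cells, was the most abundant of the 9. At 4 h the GFP libraries held 60.9 and 69.5 CPM and the E47-ER libraries 63.8 and 70.3. At 16 h the GFP libraries held 73.8 and 74.5 CPM and the E47-ER libraries 66.7 and 68.2. The groups overlapped at 4 h, and at 16 h both E47-ER libraries lay below both GFP libraries. The group means were 65.2 ± 6.14 and 67.0 ± 4.6 CPM at 4 h and 74.1 ± 0.477 and 67.5 ± 1.10 CPM at 16 h, GFP before E47-ER (SD, n = 2).

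The test of Il22 gave a log2 fold change of 0.04 with E47-ER at 4 h (SE 0.128, 95% interval -0.25 to 0.33, adjusted p = 1.0, from the quasi-likelihood test of edgeR with Benjamini-Hochberg adjustment over all genes). The 16 h value was -0.14 (SE 0.128, 95% interval -0.43 to 0.16, adjusted p = 0.514, edgeR). As ratios of E47-ER to GFP, these intervals ran from 0.838 to 1.26 at 4 h and from 0.742 to 1.12 at 16 h. Per kb of exon Il22 stood at a mean of 61.7 CPM, and 6.26% of tested genes stood higher. Its level was 8.68 times that of Ahr per kb (median of the 8 libraries, range 7.08 to 13.1). It was 22.1 times that of Il17f and 0.443 times that of Csf2, the GM-CSF gene. The type 2 cytokine genes were far higher, with Il13 at 96.1 times and Il5 at 45.6 times the level of Il22 per kb.

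Reads of Il22 can match Iltifb, a copy of the gene 79.6 kb away on the opposite strand. Their longest transcripts, of 1110 and 1111 bases, were 97.4% identical, and 41.0% of the 1061 windows of 50 bases in Il22 transcripts also occur in Iltifb. The table assigned 8102 counts to Il22 and 16 to Iltifb over the 8 libraries. How the authors' counting divided reads that match both is not given in the sources used here, so the level of Il22 is that of Il22 with any such reads it was given.

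Ahr (ENSMUSG00000019256; chromosome 12, 35497974 to 35535038, minus strand) encodes a ligand-activated transcription factor that ILC3 need to persist and that ILC2 also express. Its level at 4 h was 39.5 and 35.5 CPM in the GFP libraries and 50.0 and 44.3 CPM in the E47-ER libraries. Its level at 16 h was 36.6 and 31.5 CPM with GFP and 44.3 and 45.8 CPM with E47-ER. Both E47-ER libraries lay above both GFP libraries at each time. The group means were 37.5 ± 2.87 and 47.2 ± 4.03 CPM at 4 h and 34.0 ± 3.57 and 45.1 ± 1.0 CPM at 16 h (SD, n = 2).

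The test of Ahr gave a log2 fold change of 0.33 with E47-ER at 4 h (SE 0.139, 95% interval 0.01 to 0.65, adjusted p = 0.821, edgeR). At 16 h the value was 0.40 (SE 0.141, 95% interval 0.08 to 0.72, adjusted p = 0.162, edgeR). Neither passed the threshold of adjusted p under 0.05. Dropping the shallow GFP library (replicate 2 at 16 h) gave Ahr values of 0.34 at 4 h (adjusted p = 0.0624) and 0.29 at 16 h (adjusted p = 0.171, edgeR). Without replicate 1 of GFP at 16 h Ahr passed at 16 h (0.54, adjusted p = 0.00285, edgeR), in a fit that called 7022 genes, and over the other 7 leave-one-library-out fits its adjusted p at 16 h was 0.171 or more. Ahr and its dimer partner Arnt stood at similar levels per kb (ratio 0.90, median of 8 libraries, range 0.722 to 1.01).

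Il1r1 (ENSMUSG00000026072; chromosome 1, 40225080 to 40317257, plus strand), the signalling receptor of IL-1, was low. At 4 h it was at 1.83 and 1.21 CPM with GFP and at 1.85 and 1.08 CPM with E47-ER. At 16 h it was at 1.14 and 0.798 CPM with GFP and at 1.13 and 0.865 CPM with E47-ER. The groups overlapped at both times. The log2 fold change with E47-ER was -0.03 at 4 h (95% interval -0.97 to 0.90) and -0.01 at 16 h (95% interval -1.07 to 1.05), with adjusted p of 0.987 or more (edgeR), so the intervals leave in ratios of E47-ER to GFP from 0.512 to 1.86 at 4 h and from 0.475 to 2.06 at 16 h. The sign of the value at 16 h turned with library totals as the scaling (0.08).

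Il17a (ENSMUSG00000025929; chromosome 1, 20730905 to 20734496, plus strand), the main cytokine gene of type 17 cells, had 5 and 7 counts with GFP and 10 and 22 with E47-ER at 4 h. The 16 h libraries held 3 and 7 counts with GFP and 9 and 9 with E47-ER. These are 0.316, 0.369, 0.639 and 1.58 CPM at 4 h and 0.201, 0.931, 0.6 and 0.519 CPM at 16 h. The E47-ER libraries lay above the GFP libraries at 4 h, and the groups overlapped at 16 h. Il17a reached the 0.673 CPM of the filter in 2 libraries, replicate 2 of E47-ER at 4 h and replicate 2 of GFP at 16 h.

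The test of Il17a gave a log2 fold change of 1.65 at 4 h (SE 0.693, 95% interval 0.05 to 3.24, adjusted p = 0.825, edgeR). The value rested on replicate 2 of E47-ER at 4 h, without which it was 0.88. At 16 h the log2 fold change was 0.23 (95% interval -1.58 to 2.03, adjusted p = 0.87, edgeR). It was 1.43 once the second GFP library of that time was dropped (adjusted p = 0.409) and -0.71 once the first was (adjusted p of 0.409 or more over the 8 leave-one-library-out fits). The change of the Il17a effect from 4 h to 16 h was -1.42 (SE 1.07, adjusted p = 0.7, edgeR) and did not pass.

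Ifng (ENSMUSG00000055170; chromosome 10, 118441046 to 118445892, plus strand), the effector cytokine gene of group 1 cells, had 9 and 11 counts with GFP and 8 and 11 with E47-ER at 4 h. The 16 h libraries held 16 and 12 counts with GFP and 9 and 23 with E47-ER. These are 0.568, 0.580, 0.511 and 0.790 CPM at 4 h and 1.07, 1.6, 0.6 and 1.33 CPM at 16 h. The groups overlapped at both times, with log2 fold changes of 0.17 at 4 h (95% interval -1.09 to 1.42) and -0.40 at 16 h (95% interval -1.52 to 0.73) and adjusted p of 0.617 or more (edgeR). Of the 50-base windows of Ifng, 19.9% are also in the predicted transcript Gm49751, which lies on the same strand and had 9 counts.

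Ordered by mean level per kb, the genes stood at 61.7 (Il22), 6.64 (Ahr), 0.680 (Ifng), 0.550 (Il17a), 0.195 (Il1r1), 0.0158 (Il23r), 0.0103 (Eomes), 0.0036 (Tbx21) and 0 (Ncr1) CPM per kb. The ranges over libraries did not overlap between Il22 (54.8 to 67.1) and Ahr (5.11 to 8.12) or between Ahr and Ifng (0.395 to 1.23). The ranges of Ifng and Il17a (0.172 to 1.35) overlapped, as did those of Il17a and Il1r1 (0.125 to 0.291). Differences between these genes within libraries were not tested. Among the 4 genes near zero the order rests on 0 to 5 counts and carries no weight.

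Over all 5 tested genes, 0 were called in the E47-ER comparison at 4 h, where edgeR called 0.286% of all genes tested, and 0 at 16 h, where it called 1.59%. At an unadjusted p under 0.05 there were 2 of the 5 at 4 h (Ahr and Il17a), against 5.82% of all genes, and 1 at 16 h (Ahr), against 24%. DESeq2 called 0 of the 5 at either time. At 4 h, 2 of the 5 (Ahr and Il17a) were higher in both E47-ER libraries than in both GFP libraries, and 45.4% of all genes tested had groups that did not overlap. At 16 h, 1 was higher (Ahr) and 1 lower (Il22), against 54.3% of all genes. The median log2 fold change of the 5 was 0.17 at 4 h and -0.01 at 16 h, beside -0.0043 and -0.0057 over all genes tested. With 5 genes, 1 gene more or less moves each of these shares widely. Il17a reached the level of the filter in 2 libraries, and replicate 2 of E47-ER at 4 h was among them. Its place in the 4 h counts is therefore no support for a rise.

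**Figure D2:**
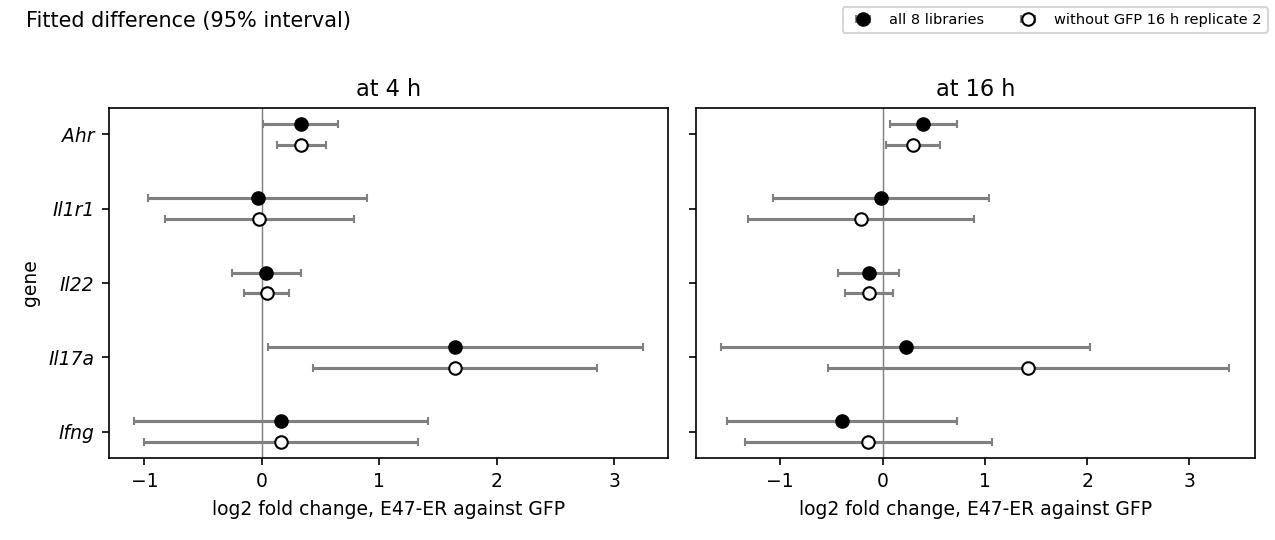
Fitted log2 fold change of E47-ER against GFP (x axis) for the 5 tested genes (y axis) at 4 h and 16 h, with bars for the 95% interval. Filled points are from all 8 libraries and open points are from the 7 without replicate 2 of GFP at 16 h. The intervals of Il22 are the narrowest and include 0 at both times, and those of Ahr lie above 0 while its adjusted p values do not pass.

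Without replicate 2 of GFP at 16 h, 0 of the 5 genes were called at 4 h, with 4.33% of all genes called, and 0 at 16 h, with 8.92%. That library stood apart from the mean of the other GFP libraries by 2.15 times for Ifng, 3.15 for Il17a and 1.09 for Il22, and by 0.848 for Ahr and 0.572 for Il1r1. The exon lengths of the first 3 are 1110 to 1295 bases, and those of Ahr and Il1r1 are 6163 and 6363 bases. The part of transcript length in these values was not tested.

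Time in culture and drug moved none of the 5 genes past the threshold. Between 4 h and 16 h, 0 of the 5 were called in GFP cells, where edgeR called 0 of all genes (1238 at an unadjusted p under 0.05), and 0 in E47-ER cells, where it called 0.0147%. Ifng in GFP cells had both 16 h libraries above both 4 h libraries (log2 fold change 1.15, 95% interval -0.04 to 2.35, adjusted p = 0.5, edgeR), and 0.89 once the shallow library was dropped (adjusted p = 0.851). Il17a in E47-ER cells had -0.97 with or without that library (adjusted p = 1.0 and 0.366, edgeR). In GFP cells 2 of the 5 were higher at 16 h without overlap (Ifng and Il22) and 1 lower (Il1r1), against 36.6% of all genes. In E47-ER cells 1 was lower (Il17a), against 50.4%. The difference of the E47-ER effect between the times was called for 0 of the 5 and for 0 of all genes (671 at an unadjusted p under 0.05). These comparisons share libraries with those at 4 h and 16 h.

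Several of the 9 genes lie beside relatives that these cells express at other levels, within 250 kb, a distance chosen after the values were seen. Il23r, with 4 counts, lies 46.7 kb from Il12rb2, which encodes a chain of the IL-12 receptor and had 2459 counts (5.16 CPM per kb). Il1r1, at 0.195 CPM per kb, lies between the decoy receptor gene Il1r2 at 160 and the IL-33 receptor gene Il1rl1 at 280 CPM per kb. Il1r2 stood at 858 times and Il1rl1 at 1496 times the level of Il1r1 (medians of 8 libraries). Il18r1 and Il18rap, the IL-18 receptor genes of the same cluster, stood at 10 and 22.2, and Il1rl2 at 0.146 CPM per kb.

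Il17f, 42.6 kb from Il17a, encodes a cytokine of the same family and stood at 6.27 times the level of Il17a per kb (median, range 2.55 to 12.9). Ifng lies 231 kb from Il22, and Il22 stood at 114 times its level per kb (median, range 54.4 to 146).

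**Figure D3:**
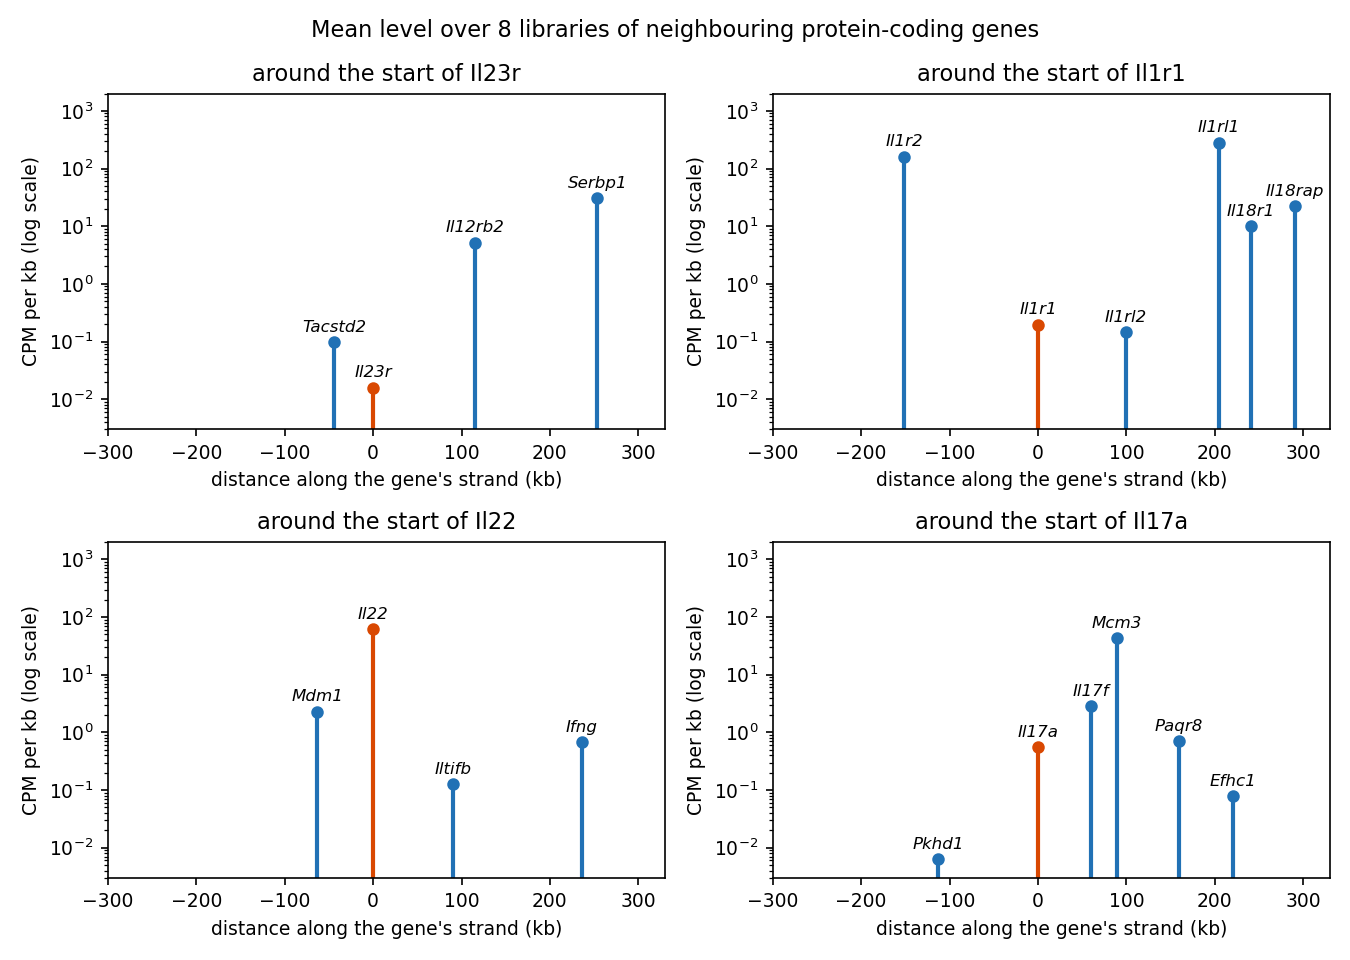
Mean level over the 8 libraries (y axis, CPM per kb on a log scale) of protein-coding genes within 250 kb of Il23r, Il1r1, Il22 or Il17a, each drawn at its start (x axis, distance in kb along the named gene's strand). The gene named in each title is in orange, and predicted genes and those starting beyond the axis are left out. Il23r and Il1r1 are low beside Il12rb2, Il1r2 and Il1rl1, and Il22 is high beside Iltifb and Ifng.

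The partners of the 9 genes were present at different levels. Il17f, a relative of Il17a, stood at 3.63 ± 0.581 and 7.32 ± 0.494 CPM at 4 h (log2 fold change 1.02, adjusted p = 0.372) and passed (1.02, adjusted p = 0.00726, edgeR) once the shallow replicate 2 of GFP at 16 h was dropped, and also without replicate 1 of that group. Csf2 stood at 84.5 ± 5.48 and 116 ± 5.56 CPM at 4 h (0.46, adjusted p = 0.97, edgeR), with 0.46 again when the shallow replicate 2 was dropped. The 16 h value of Csf2 turned from -0.31 to 0.15 without that shallow library, and was -0.64 without replicate 1 of GFP at 16 h.

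Among receptor and signalling partners, Il12rb1, the chain shared by the IL-12 and IL-23 receptors, was abundant at 367 ± 0.602 and 364 ± 13.0 CPM at 4 h and 288 ± 82.7 and 407 ± 49.0 at 16 h (log2 fold changes -0.01 and 0.50, adjusted p = 1.0 and 0.184, edgeR). Il12rb2 had log2 fold changes of 0.65 and 1.48 (adjusted p = 1.0 and 0.145), and in replicate 2 of GFP at 16 h it stood at 3.46 CPM against 13.1 in replicate 1. Stat4, which carries the IL-12 signal, had -0.12 and 0.53 (adjusted p = 1.0 and 0.142, edgeR), and passed at 16 h without replicate 2 of GFP (0.53, adjusted p = 0.0361) and without replicate 1 of that group. Il1rap, the co-receptor of Il1r1, had -0.06 and 0.11. Ahrr, the repressor that AHR induces, had 0.02 and 0.56 (adjusted p = 1.0 and 0.181), and Arnt had -0.02 and 0.32 (adjusted p = 1.0 and 0.274, edgeR). Leaving out 1 library moved the 16 h values over 0.23 to 0.85 for Il12rb1, 0.90 to 2.85 for Il12rb2, 0.25 to 1.0 for Ahrr and 0.085 to 0.63 for Arnt. These 4 genes passed in 1 of the 8 such fits, that with the first GFP library of 16 h dropped (adjusted p of 9.4e-04 or less, edgeR).

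Wider lists of both programs held a few genes that rose, beside 0.286% of all genes called at 4 h and 1.59% at 16 h. Of 27 tested group 1 genes, 1 was higher at each time, Irf8, a transcription factor of myeloid and lymphoid cells, which went from 18.0 ± 3.70 to 53.4 ± 1.70 CPM at 4 h (log2 fold change 1.56, adjusted p = 0.0307) and stood at 14.0 ± 3.06 and 62.7 ± 6.97 CPM at 16 h (2.14, adjusted p = 0.00381, edgeR). The list's median was 0.09 at 4 h and 0.24 at 16 h, and 0 were lower. Of 25 tested group 3 genes, 2 were higher at 4 h, the IL-6 receptor gene Il6ra (3.35, adjusted p = 0.0214) and the lymphotoxin gene Ltb (1.15, adjusted p = 0.0429), and the list's median was 0.38. At 16 h 4 were higher, Il6ra (2.59, adjusted p = 0.0168), Ltb (1.83, adjusted p = 0.00286), Rora (1.0, adjusted p = 0.0139) and Tox2 (0.86, adjusted p = 0.0141, all edgeR), with a median of 0.33. With the shallow GFP library dropped, 8 group 3 genes were higher at 4 h (Rora, Tox2, Csf2, Il17f, Il1r2 and Il21r in addition), and at 16 h 6 were higher and 1, Irf4, was lower. The group 1 list then had 2 higher at 4 h and 4 at 16 h, with Il18r1 added at both times and Stat4 and Il18rap at 16 h. In that fit 4.33% and 8.92% of all genes were called. Rora is also a regulator of ILC2, and Il6ra and Ltb are expressed by many lymphocytes. Several members of these lists were known from earlier results of these libraries when the lists were written, so their counts are no independent evidence.

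These calls depended on the libraries in the fit. At 4 h Irf8, Il6ra and Ltb were called in 2 of the 8 leave-one-library-out fits, those without replicate 1 or replicate 2 of GFP at 16 h, and their adjusted p reached 0.328, 0.276 and 0.497 in the others. At 16 h Irf8 and Ltb were called in 7 of the 8, all but that without replicate 2 of E47-ER at 16 h (adjusted p = 0.0535 and 0.0502). Il6ra and Rora were called in 4 and Tox2 in 2 at 16 h, with adjusted p of up to 0.197, 0.209 and 0.228. Each kept its direction in all 8 fits.

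Of 12 tested AHR partners and targets, 0 were called at either time, with a median log2 fold change of 0.00 at 4 h and 0.20 at 16 h. Of all genes tested, 0.286% were called at 4 h and 1.59% at 16 h. The AHR target Tiparp had 0.22 and 0.49 (adjusted p = 1.0 and 0.153), and Nqo1, a detoxifying enzyme, -0.28 and -0.50 (adjusted p = 1.0 and 0.156, edgeR). Without replicate 2 of GFP at 16 h, Nqo1 and Hsp90ab1 passed as lower at 16 h, in a fit where more of all genes passed. The list's median at 16 h turned from 0.20 to -0.03. Tiparp passed at 16 h in 1 leave-one-library-out fit, that lacking the first GFP library of that time. Of 19 tested genes of IL-1 and IL-23 signalling, 0 were called at 4 h (median 0.08) and 1 was higher at 16 h (median 0.21), Sigirr, an inhibitory member of the IL-1 receptor family (0.75, adjusted p = 0.0374, edgeR). Of 13 tested interferon gamma receptor and early target genes, 0 were called at 4 h (median 0.15) and 1 was higher at 16 h (median 0.36), the receptor gene Ifngr1 (106 ± 3.46 to 201 ± 12.8 CPM, 0.92, adjusted p = 0.0329, edgeR). Sigirr and Ifngr1 were called at 16 h in 2 of the 8 leave-one-library-out fits, those without either GFP library at 16 h, with adjusted p of up to 0.38 and 0.35 in the others. With the shallow library dropped, more genes of the IL-1 and IL-23 list passed as higher at both times, as did more of all genes tested. The list's 16 h median was then 0.13. More genes of the interferon gamma list passed as higher at 16 h in that fit, and its median was 0.21 at 16 h. Ifng itself, the ligand, stood at 0.963 ± 0.513 CPM in the E47-ER cells of that time.

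**Figure D4:**
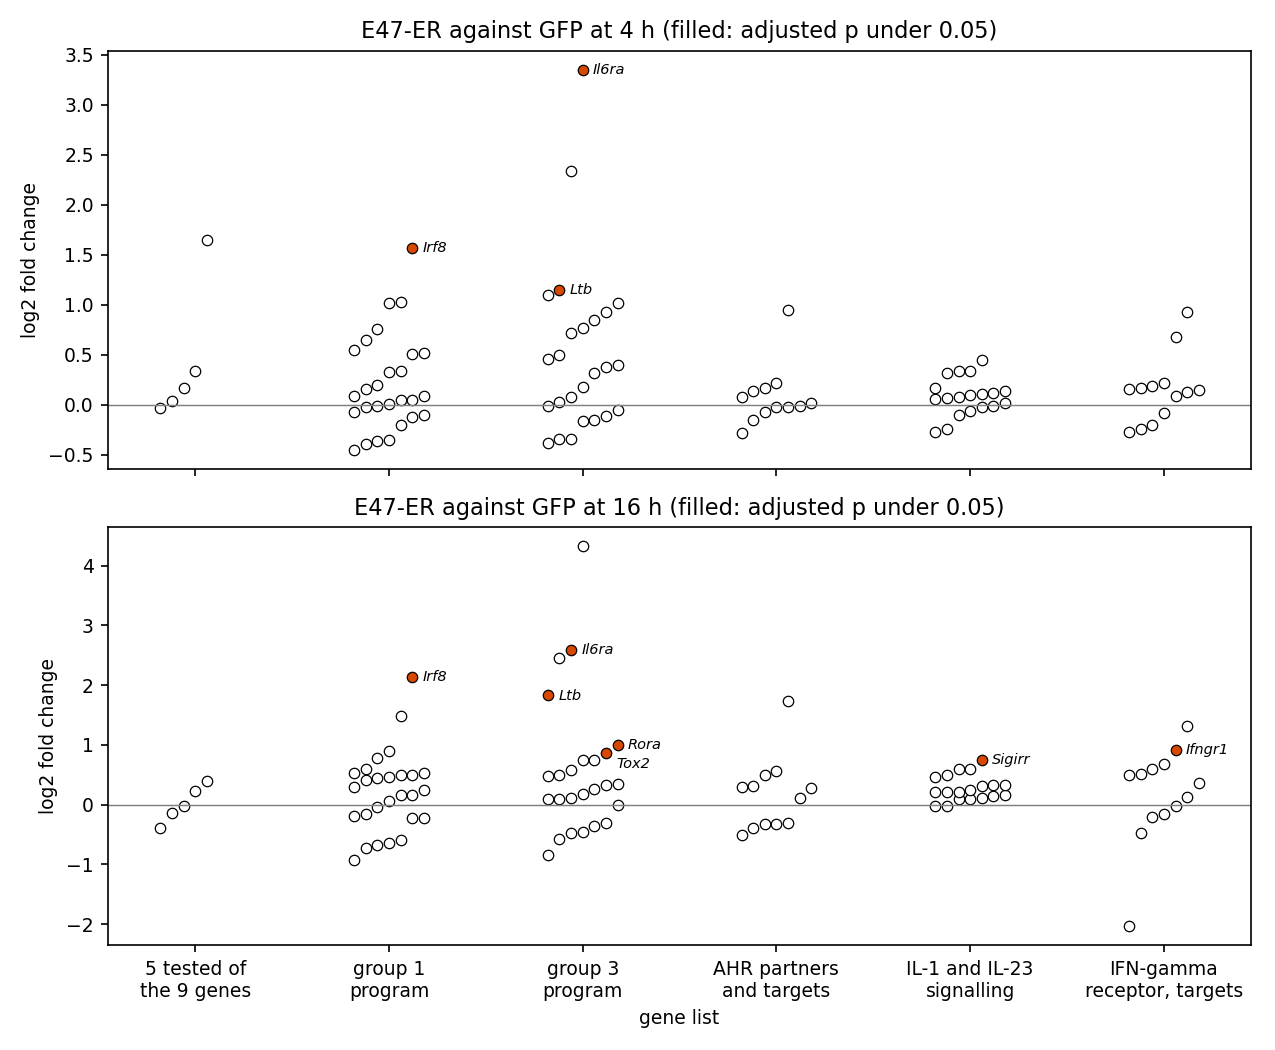
Log2 fold change of E47-ER against GFP (y axis) of each tested gene in 6 lists (x axis) at 4 h and 16 h, with called genes (adjusted p under 0.05) filled and named. No gene of the 5 tested members is filled, and the filled genes, Irf8, Il6ra, Ltb, Rora, Tox2, Sigirr and Ifngr1, all lie above 0.

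Markers of other cells moved with E47-ER in part. In bulk libraries, fewer cells of a type and less RNA per cell cannot be told apart. The 18 listed genes of ILC2 themselves summed to 25780 and 27896 CPM with GFP and to 22673 and 23091 with E47-ER at 4 h. At 16 h the sums were 25355 and 31436 against 20714 and 21271. Groups did not overlap at either time, as for 45.4% and 54.3% of all genes tested. The median log2 fold change of the 17 tested was -0.18 at 4 h and -0.09 at 16 h. At 4 h 0 were called, and at 16 h 2 were higher (Rora and Ptprc), beside 0.286% and 1.59% of all genes. The 12 natural killer and ILC1 markers summed at 4 h to 20.1 and 21.4 CPM with GFP and to 19.9 and 20.1 with E47-ER. At 16 h they summed to 7.98 and 19.1 with GFP and to 27.8 and 37.2 with E47-ER. Of the 3 tested, 1 was higher at 16 h, Cd7 (2.07, adjusted p = 0.00631, edgeR), beside 1.59% of all genes called. The 12 T cell markers summed to 181 to 196 CPM in GFP and 241 to 245 in E47-ER cells at 4 h, and to 183 to 192 and 305 to 307 at 16 h. Of the 8 tested, Trbc1 and Trbc2 were higher at both times, beside 0.286% of all genes called at 4 h and 1.59% at 16 h. Of the B cell markers (2 tested) Ighm and of the epithelial and erythroid markers (1 tested) Epcam were higher at 16 h. In those lists 2 of 8 and 6 of 10 members were under 10 counts. These calls too depended on the libraries: Trbc1 and Trbc2 at 4 h and Ighm and Epcam at 16 h were called in 2 of the 8 leave-one-library-out fits, those lacking either GFP library of 16 h. The highest adjusted p in the others was 0.497 for Trbc1, 0.402 for Trbc2, 0.267 for Ighm and 0.248 for Epcam. At 16 h Trbc2 was called in 7 of the 8, and Trbc1 and Cd7 in 6.

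The mast cell and basophil markers went the other way as a sum, with 1 of the 8 tested in the fit of all libraries. They summed to 45.0 and 61.8 CPM with GFP and to 23.1 and 31.0 with E47-ER at 4 h. At 16 h the sums were 37.4 and 133 against 23.1 and 29.6, and the groups did not overlap at either time. Of all genes tested, 45.4% at 4 h and 54.3% at 16 h had groups that did not overlap. Of these 8 markers 6 were under 10 counts and 4 of them at 0, and the sum is mostly that of Mcpt8, a basophil protease gene. Without replicate 2 of GFP at 16 h, 2 of the 8 were tested, with a median log2 fold change of -0.20 at 4 h and 0.89 at 16 h. Not every tested marker was lower in that fit. Mcpt8 was not called in the fit of all libraries, and was called lower at 4 h in 2 of the 8 leave-one-library-out fits, those lacking either GFP library of 16 h. Myeloid markers, of which 3 of 10 were under 10 counts, summed to 20.5 and 21.7 CPM with GFP and to 21.0 and 29.4 with E47-ER at 4 h, and to 15.8 and 19.3 against 26.1 and 36.4 at 16 h, with 0 called. The part of these markers in the values of Ahr and Il17a was not tested.

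By the likeness of log2 CPM over the 8 libraries, the genes closest to Il22, the most abundant of the 9, were Vill (Pearson r 0.956), Emc9 (0.926) and Sergef (0.924) of 10937 candidates. Without replicate 2 of GFP at 16 h they were Txndc12 (0.972), Cmc1 (0.959) and Ap3s2 (0.957) over 7 libraries, so none of the 3 recurred. The SD of Il22 itself was 0.10 on the log2 scale over the 8 libraries.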

How the data were processed

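Counts are whole numbers for each Ensembl gene in each library, and the authors deposited them without any scaling. The submitters' processing notes name the build mm10 and DESeq2 (with neither version nor role). The labels name no aligner, counter, strand setting or annotation release. All 8 columns were used. Of the IDs, 50376 matched a symbol in GENCODE release M21 (GRCm38), which also gave positions and exon lengths.

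The analysis used edgeR 4.0.16 in R 4.3.3. The filter was filterByExpr at a minimum count of 10 (0.673 CPM in at least 2 libraries), the scaling TMM, and a robust quasi-likelihood model with 1 mean per group was fitted to the 8 libraries. It gave 5 comparisons: E47-ER against GFP at each time, the difference between these, and 16 h against 4 h in GFP and in E47-ER cells. Benjamini-Hochberg adjustment of the two-sided p ran over all genes tested, with calls at an adjusted p under 0.05. The SE was taken as the size of the log2 fold change over the root of its F statistic. The script was tested on simulated data. CPM means are given with the SD of 2 libraries. A gene of the 9 with fewer than 10 counts in all was called near zero, and 3 counts set the detection limit.

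The 9 genes, the 12 other lists and the partners were chosen with earlier results of these data known. Genes named are the 9, their partners (Il17f, Csf2, Il12rb1, Il12rb2, Stat4, Arnt, Ahrr, Il1rap, Klrb1c, with 1 more not reported here), up to 4 called genes per list and comparison by smallest adjusted p, or else up to 2 with the smallest p, and the 3 genes most like the most abundant of the 9. Label check genes, neighbours, Hsp90ab1, Gzmb, Gzma and the library left out throughout were chosen after values were seen. Alternatives comprised DESeq2 1.42.0, scaling by RLE or by library totals, no filter, only the 4 libraries compared, a replicate block, and each library left out in turn, which assumes that a lone library varies like those of other groups. Sequences were matched on GRCm38.p6 with Python 3.11.15, and figures drawn with matplotlib 3.10.9.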

Additional observations from a re-analysis of the deposited data

How the results depend on the processing

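Of the 5 tested genes, 0 were called in any comparison under any alternative, with 1 exception: without replicate 1 of GFP at 16 h, Ahr was called at 16 h, so that over the 8 leave-one-library-out fits the count there ran from 0 to 1. Of the genes near zero, Tbx21, Eomes and Il23r were fitted only with no filter and none was called. Ncr1, with 0 counts, was not fitted under any setting.

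The number of all genes called moved more. At 4 h it was 39, and it was 121 with DESeq2, 19 with library totals, 165 with no filter, 443 with only the 4 libraries compared and 11 with a replicate block. At 16 h it was 217 (171 higher), and it was 1053 with DESeq2 (437 higher), 1816 with no filter (927 higher), 6 with only the 4 libraries (6 higher), 54 with the block (50 higher) and 188 with library totals (160 higher). The difference between the times and the time comparison in GFP cells went from 0 to 53 and 305 with no filter. The time comparison in E47-ER cells went from 2 to 24 with DESeq2, 0 with library totals, 53 with no filter, 957 with its 4 libraries alone and 0 with the block. Over the leave-one-library-out fits the counts ran from 1 to 619 at 4 h, 15 to 7022 at 16 h, 0 to 5124 for the difference, 0 to 6034 for time in GFP cells and 0 to 440 for time in E47-ER cells. The highest at 16 h was without replicate 1 of GFP at 16 h, and without replicate 2 it was 1262 (621 higher). The causes were not tested.

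The replicate numbers of the labels gave 2 pairs per comparison, with correlations of deviations from -0.0901 to 0.0404. With 2 libraries a group, these values cannot show whether libraries of the same number share a mouse or culture. With the replicate block 0 of the 5 genes were called.

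The sign of Il1r1 at 16 h turned with library totals (0.083), no filter (0.037) and the replicate block (0.042), and that of Jak2, a kinase of the IL-23 and interferon receptors, with library totals (0.088) and no filter (0.035). Over the leave-one-library-out fits, log2 fold changes of members that crossed 0 at 4 h ran from -0.17 to 0.45 (Ifng), -0.49 to 0.29 (Il1r1) and -0.054 to 0.14 (Il22). At 16 h they ran from -1.09 to 0.044 (Ifng), -0.21 to 0.33 (Il1r1) and -0.71 to 1.43 (Il17a). The difference between times ran from -0.043 to 0.21 (Ahr) and -0.29 to 0.48 (Il1r1), time in GFP cells from -0.75 to 1.39 (Il17a), and time in E47-ER cells from -0.10 to 1.03 (Ifng), -0.15 to 0.024 (Ahr) and -0.058 to 0.082 (Il22). Other named genes that crossed 0 at 4 h were Il12rb1 (-0.052 to 0.022), Stat4 (-0.29 to 0.024), Arnt (-0.047 to 0.012), Ahrr (-0.062 to 0.093), Il1rap (-0.19 to 0.085), Cd79b (-0.073 to 0.28) and Ifngr1 (-0.031 to 0.38). At 16 h they were Csf2 (-0.64 to 0.15), Il1rap (-0.22 to 0.66), Il1r2 (-0.016 to 0.22), Jak2 (-0.17 to 0.15) and Fcgr3 (-0.75 to 0.97). The cause was not tested.

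Of 36 mean levels over 4 alternatives, 4 of 144 values moved by more than 1 SD between replicates, all with library totals. Where 1 of the 2 libraries of a group is left out, the group mean cannot move by more than 1 SD. Means of genes without counts in a group cannot move either. The share of values that stayed is therefore no measure of stability. Depth limits Tbx21, Eomes, Ncr1 and Il23r to statements of near zero, and the 72 to 151 counts of Il17a, Ifng and Il1r1 leave intervals that span more than a 2-fold range.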
